A study of Rattus norvegicus with 16 samples.

Results

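Mb, Eno3, Fhl1, Mybph and Art3 are 5 genes of skeletal muscle fibres, described here over every library of a study of implants on the rat abdominal wall. They were chosen by name, 5 of the 32552 genes counted, and the choice was made with earlier values of the implant comparison on day 14 in view, in which Mb, Mybph and Fhl1 had been higher at adhesive implants. That comparison is therefore given below as a description, without a test. The comparison of implants on day 3 and the comparison of day 14 with day 3 averaged over both implants were tested. The members were chosen with earlier results of these data known. The comparison of days also shares the day 14 libraries, so its p-values are not free of that choice.

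The study asked how gene expression differs at the interface between an implant and the abdominal wall when the implant bonds to the tissue and when it does not. Bulk RNA from this interface was sequenced from 12-week-old female Sprague Dawley rats in 4 groups of 4 libraries, 16 in all. The methods of the study name rats of both sexes for its rat work as a whole. The groups were adhesive implant on day 14, non-adhesive implant on day 14, adhesive implant on day 3 and non-adhesive implant on day 3. Both implants were a polyurethane mock device with a bonding layer, and the non-adhesive form was the same implant swollen in saline until its layer no longer bonded. The non-adhesive implant was held with sutures, so bonding and sutures cannot be told apart in any comparison of implants. No untreated abdominal wall was analysed here. The sources do not say whether the 4 libraries of a group came from separate rats, and p-values then measure only the spread between these libraries, which may be technical. One series text gives the later day as 17 and the extraction text gives day 10. The sample labels and the methods of the study give days 3 and 14, which are used here.

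Skeletal muscle fibres hold contractile sarcomeres in series, enzymes of glycolysis and oxidative metabolism that supply them with ATP, and proteins that bind oxygen or join the sarcomere to the rest of the cell. The abdominal wall is mainly flat sheets of such fibres with connective tissue between them. Mature fibres express metabolic genes strongly, whereas regenerating fibres switch on regulators of muscle development. In RNA from whole tissue, fewer muscle fibres in a sample and less RNA of a gene per fibre cannot be told apart.

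The members encode proteins of different kinds. Mb encodes myoglobin, the oxygen-binding haem protein of oxidative fibres and heart. Eno3 encodes β-enolase, the muscle form of a glycolytic enzyme. Fhl1 encodes a protein built of LIM domains that is abundant in skeletal muscle and is found at the sarcomere. Mybph encodes myosin-binding protein H, a relative of the myosin-binding proteins C of the thick filament. Art3 encodes a member of the ADP-ribosyltransferase family that is anchored at the cell surface.

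In the coordinates of the count files, Mb (ENSRNOG00000004583) lay on chromosome 7 at 118101634 to 118108864 on the minus strand, with 946 exonic bases. Eno3 (ENSRNOG00000004078) lay on chromosome 10 at 57278307 to 57283653 on the plus strand, with 1429 exonic bases. Fhl1 (ENSRNOG00000000875) lay on chromosome X at 159112880 to 159172524 on the plus strand, with 2650 exonic bases. Mybph (ENSRNOG00000003336) lay on chromosome 13 at 51034256 to 51041902 on the plus strand, with 1857 exonic bases. Art3 (ENSRNOG00000002256) lay on chromosome 14 at 17143040 to 17225389 on the minus strand, with 2059 exonic bases. The sources name different builds for these coordinates, so they serve only to place the counted exons. The 5 genes lay on 5 different chromosomes, and their exons shared 0 bases with the exons of another counted gene.

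Start site windows from RefSeq (assembly GRCr8) are shown for the most strongly changed pair, Mb and Eno3, and for Fhl1, another abundant member that did not follow them between days. Each window holds 250 bases before the start site and 50 bases from it onward, read 5′ to 3′ on the gene's own strand. Of the 5 members 4 matched the table by symbol, and Mybph did not. Fhl1 has 2 listed start sites. Capitals mark matches on either strand to the E-box CANNTG, the CCAC box CCACCC, the MCAT element CATTCC or the TATA box TATAAA, and none of these matches overlapped another.
Mb, chr7:110647693-110647992, minus strand: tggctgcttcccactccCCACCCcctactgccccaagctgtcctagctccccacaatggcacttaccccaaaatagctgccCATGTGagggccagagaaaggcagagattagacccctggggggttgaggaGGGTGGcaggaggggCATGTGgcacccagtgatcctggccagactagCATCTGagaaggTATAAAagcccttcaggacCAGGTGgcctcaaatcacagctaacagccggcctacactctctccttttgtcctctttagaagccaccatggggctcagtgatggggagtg
Eno3, chr10:55868936-55869235, plus strand: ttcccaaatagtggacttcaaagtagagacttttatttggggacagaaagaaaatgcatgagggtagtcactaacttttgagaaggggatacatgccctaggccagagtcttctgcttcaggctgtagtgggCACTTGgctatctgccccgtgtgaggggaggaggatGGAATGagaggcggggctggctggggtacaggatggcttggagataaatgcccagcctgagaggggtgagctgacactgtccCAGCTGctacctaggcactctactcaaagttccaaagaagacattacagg
Fhl1 start 1, chrX:139638246-139638545, plus strand: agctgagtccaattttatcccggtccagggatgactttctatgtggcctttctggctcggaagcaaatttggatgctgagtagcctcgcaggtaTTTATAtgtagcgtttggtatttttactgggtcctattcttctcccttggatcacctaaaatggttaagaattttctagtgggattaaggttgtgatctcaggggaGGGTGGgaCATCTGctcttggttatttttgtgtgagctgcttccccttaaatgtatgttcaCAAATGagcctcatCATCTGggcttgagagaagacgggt
Fhl1 start 2, chrX:139645222-139645521, plus strand: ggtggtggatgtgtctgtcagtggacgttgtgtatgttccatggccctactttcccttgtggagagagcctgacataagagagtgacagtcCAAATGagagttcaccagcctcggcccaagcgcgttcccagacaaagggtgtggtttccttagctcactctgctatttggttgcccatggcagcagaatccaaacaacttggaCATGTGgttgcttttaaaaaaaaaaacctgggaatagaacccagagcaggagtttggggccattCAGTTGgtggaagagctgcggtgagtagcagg

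The Mb window held 4 E-boxes, 2 CCAC boxes and 1 TATA box, the last beginning 60 bases before the start site. The Eno3 window held 2 E-boxes and 1 MCAT element, with no TATA box. Start 1 of Fhl1 had 3 E-boxes, 1 CCAC box and 1 TATA box that read on the opposite strand, and start 2 had 3 E-boxes alone. The Art3 window held 2 E-boxes and 1 CCAC box. The only motif shared by Mb and Eno3 was the E-box, which 72.1% of the 33469 rat windows of this length contain. The CCAC box occurs in 29.4% of those windows, the MCAT element in 14.2% and the TATA box in 14.2%. The consensus of MEF2, a factor of muscle gene expression, was searched by name and matched in 3.29% of all windows and in none of the windows of Mb, Eno3, Fhl1 and Art3.

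Levels are given in CPM, a gene's counts scaled to the same library total in every library, with the trimmed mean of M values (TMM) used to scale between libraries. Library totals were 13852126 to 15994448 counts at adhesive and 14710269 to 16801635 at non-adhesive implants on day 14, and 18616084 to 22374546 at adhesive and 19921066 to 24858976 at non-adhesive implants on day 3. Every day 14 library was shallower than every day 3 library, so day and depth cannot be told apart. The 5 members took 1.61 to 1.95% of all counts at adhesive and 1.06 to 1.70% at non-adhesive implants on day 14, and 0.667 to 1.32% at adhesive and 0.590 to 1.13% at non-adhesive implants on day 3. The lowest count of any member was 439 reads, for Mybph in replicate 4 of the non-adhesive implants on day 14. Replicate 4 of the non-adhesive implants on day 14 stood apart from its group, with a summed level of 11 connective tissue matrix genes of 3204 CPM against 19366 to 21518 CPM in the other 3 libraries.

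Per length, Mb and Eno3 were the most abundant members on day 14, and Fhl1 on day 3. In RPKM, which is CPM per kilobase of exon, Mb averaged 7809 ± 1269 at adhesive implants on day 14 (SD, n = 4) and ranked 16 among 14601 expressed genes. Eno3 averaged 5844 ± 1826 RPKM there, Fhl1 2313 ± 377 RPKM, and Art3 229.8 ± 36.2 RPKM (SD, n = 4 each), and the mean of Mybph was 167 RPKM. Mybph was the least abundant of the 5 in all 4 groups and Art3 the next, both far below the other members. On day 3 Fhl1 had the highest mean of the 5 at both implants, with 2526 ± 1053 RPKM at adhesive and 1481 ± 321 RPKM at non-adhesive implants (SD, n = 4 each), close at non-adhesive implants to the 1413 ± 1156 RPKM of Mb.

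**Figure D1:**
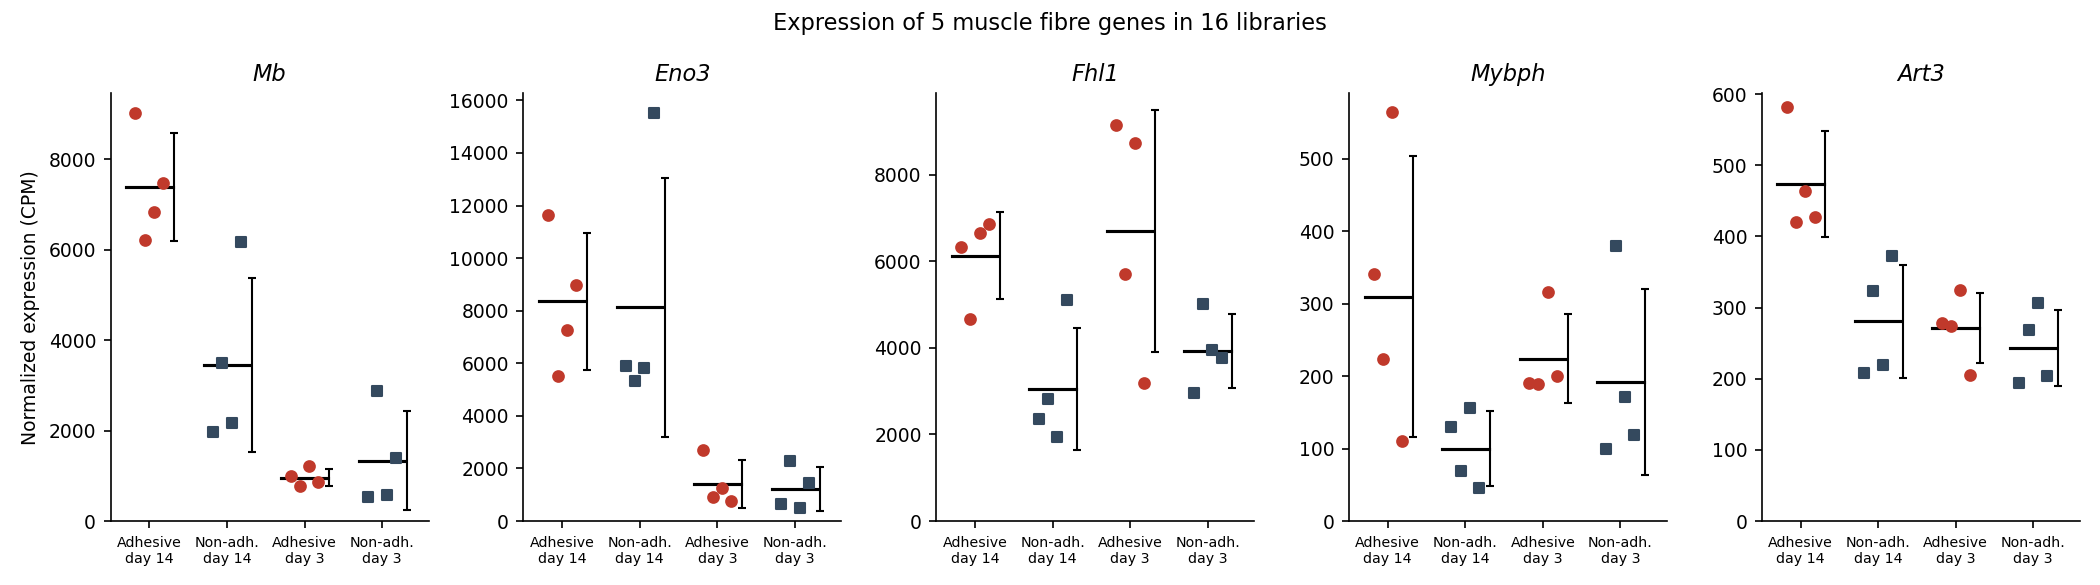
Normalized expression (CPM, linear axes from 0) of Mb, Eno3, Fhl1, Mybph and Art3 in 16 libraries, with a point per library, a horizontal line for the group mean and a bar of ± 1 SD (n = 4). Mb and Eno3 are high on day 14 and low on day 3, whereas Fhl1 and Mybph show no such step, and the highest Eno3 point is replicate 4 of the non-adhesive implants on day 14.

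Mb, the oxygen-binding member, was highest at adhesive implants on day 14. Replicates 1 to 4 had 9019, 6228, 6831 and 7469.6 CPM with adhesive implants on day 14, against 1980.2, 3499.8, 2179.5 and 6168 CPM with non-adhesive implants. On day 3 the levels were 999, 784, 1209 and 856 CPM with adhesive implants, against 524, 2867, 572 and 1384 CPM with non-adhesive implants. All 4 adhesive libraries of day 14 lay above every other library, the nearest being replicate 4 of the non-adhesive implants of that day. Of the 8 day 14 libraries, 6 lay above all 8 day 3 libraries, and the overlap came from a single day 3 library, replicate 2 of the non-adhesive implants. The means were 7387 ± 1200.3 CPM for adhesive and 3457 ± 1929 CPM for non-adhesive implants on day 14, and 962 ± 187 CPM for adhesive and 1337 ± 1094 CPM for non-adhesive implants on day 3 (SD, n = 4 each). In the order of these means, the step from adhesive to non-adhesive implants on day 14 was without overlap, and the 2 following steps, to non-adhesive and then adhesive implants on day 3, were between overlapping groups.

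Eno3, the glycolytic member, separated the days completely. Its levels were 11643, 5524, 7253 and 8985 CPM with adhesive implants on day 14, against 5902, 5313, 5803 and 15506 CPM with non-adhesive implants. The day 3 libraries held 2716, 918, 1252 and 755 CPM with adhesive implants, against 637, 2292, 505 and 1450.4 CPM with non-adhesive implants. The 8 libraries of day 14 all lay above the 8 of day 3, and the implants overlapped on both days. The group means differed by less than 1 SD between implants on either day, with 8351 ± 2610.0 CPM for adhesive and 8131 ± 4923 CPM for non-adhesive implants on day 14, and 1410.2 ± 895 CPM for adhesive and 1221 ± 828 CPM for non-adhesive implants on day 3 (SD, n = 4 each).

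The group means of Fhl1, the LIM-domain member, fell in order of implant rather than day, with overlap between neighbouring groups throughout. This order is a description. The day 14 part was in view when Fhl1 was chosen, and the day 3 part was not called (edgeR adjusted p = 0.70). It had 6334, 4665, 6660.5 and 6857 CPM with adhesive implants on day 14, against 2366, 2810.3, 1933 and 5105 CPM with non-adhesive implants. Day 3 gave 9139.8, 5706, 8734 and 3197 CPM with adhesive implants, against 2957, 5023, 3959 and 3763 CPM with non-adhesive implants. On each day 3 of the 4 adhesive libraries exceeded all 4 non-adhesive ones. The remaining adhesive library fell among them, replicate 2 on day 14 and replicate 4 on day 3. The share of other genes with such counts was not computed. The highest group mean was that of adhesive implants on day 3, 6694 ± 2789.8 CPM (SD, n = 4), which differed by less than this spread from the 6129 ± 999.7 CPM of adhesive implants on day 14. Non-adhesive implants averaged 3054 ± 1413 CPM on day 14 and 3926 ± 851 CPM on day 3 (SD, n = 4 each).

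Mybph, the thick filament member, showed no step between days over both implants. It had 341, 223, 564 and 111 CPM with adhesive implants on day 14, against 129.8, 68.8, 156 and 45.2 CPM with non-adhesive implants. Its day 3 levels were 190.3, 189.8, 316 and 199 CPM with adhesive implants, against 98.8, 379.6, 171 and 119 CPM with non-adhesive implants. Neighbouring groups in the order of its means overlapped at every step. Replicate 4 of the non-adhesive implants on day 14, in which the other members of that group peaked in CPM, held the lowest Mybph level of all 16 libraries. The TMM factor of that library, 0.624, was the lowest of all, which raises its CPM. As a share of all counts, Art3 peaked in replicate 2 of that group instead, at 0.0334% against 0.0232% in replicate 4. The mean for adhesive implants on day 14, 309.6 ± 194 CPM (SD, n = 4), was 3.10 times that for non-adhesive implants, whose SD was 51.8 CPM. The means on day 3 were 224 ± 61.6 CPM for adhesive and 192 ± 129 CPM for non-adhesive implants (SD, n = 4 each).

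Art3, the cell surface member, had the narrowest range of the 5 relative to its lowest level. It had 581, 421, 464 and 427 CPM with adhesive implants on day 14, against 209, 323, 219 and 372 CPM with non-adhesive implants. On day 3 it had 279, 274, 325 and 205 CPM with adhesive implants, against 194, 268, 306 and 203 CPM with non-adhesive implants. The adhesive libraries of day 14 lay above all others, and the remaining 3 groups overlapped each other. Their means were 281 ± 79.8 CPM at non-adhesive implants on day 14, 271 ± 49.3 CPM at adhesive implants on day 3 and 243 ± 53.5 CPM at non-adhesive implants on day 3 (SD, n = 4 each), against 473 ± 74.4 CPM (SD, n = 4) at adhesive implants on day 14.

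Between days, averaged over both implants, Mb and Eno3 rose on day 14 relative to day 3 and the other 3 members did not pass the thresholds. Mb had a log2 fold change of 2.22 (SE 0.36), a 4.66-fold higher level, with an adjusted p = 0.00048 in the quasi-likelihood test of edgeR. Eno3 had a log2 fold change of 2.71 (SE 0.40), a 6.55-fold higher level, with an adjusted p = 0.00028 in the same edgeR fit. Calls required an adjusted p no higher than 0.05 and a log2 fold change no smaller than 1 in size, which 12.5% of the 14601 genes tested passed, with 7.51% of the genes tested called higher on day 14. Art3 had a log2 fold change of 0.58 (SE 0.16) with an adjusted p = 0.011 from edgeR, so it passed the p threshold and not the fold threshold, as 35.9% of genes passed the p threshold whatever their fold. Fhl1 stood at -0.18 (SE 0.25, edgeR adjusted p = 0.61) and Mybph at -0.16 (SE 0.36, edgeR adjusted p = 0.76). Only Eno3 had days without overlap, which 6.8% of genes showed in either direction and 2.25% with day 14 higher.

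The rises of Mb and Eno3 were called in every alternative run. A change of scaling moves all genes of a library together. The distance of a member from the median of all genes could therefore hardly change with it, and is given as a description. With library totals in place of TMM factors, the median log2 fold change of all genes moved to -0.48, against 0.02 with TMM, and the share of calls that were higher on day 14 moved to 16.9%, against 59.9%. Relative to the median of all genes, library totals gave 2.19 for Mb, 2.69 for Eno3, 0.55 for Art3, -0.21 for Fhl1 and -0.11 for Mybph, against 2.20, 2.70, 0.56, -0.20 and -0.18 with TMM. The p-values test a difference from 0, not from that median, so that the same shift of all genes left Art3 at an adjusted p = 0.68 and Fhl1 at an adjusted p = 0.0027 in edgeR with library totals. The direction of Mybph turned to 0.12 (edgeR adjusted p = 0.79) without replicate 2 of the non-adhesive implants on day 3. Without replicate 4 of the non-adhesive implants on day 14, Mb stood at 1.96 (edgeR adjusted p = 0.00061) and Eno3 at 2.41 (edgeR adjusted p = 0.00030).

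Within each implant, as a description, Eno3 showed nearly the same step between days and Mb did not. The log2 difference of day 14 from day 3 for Eno3 was 2.63 (SE 0.57) at adhesive and 2.79 (SE 0.57) at non-adhesive implants. For Mb it was 3.02 (SE 0.52) at adhesive and 1.43 (SE 0.49) at non-adhesive implants. The non-adhesive libraries of day 3 included replicate 2, with Mb at 2867 CPM against 524, 572 and 1384 CPM in the others. The step of Mb was not computed without that library. Art3 had 0.88 (SE 0.23) at adhesive and 0.28 (SE 0.22) at non-adhesive implants, and Fhl1 had -0.06 (SE 0.36) at adhesive and -0.30 (SE 0.36) at non-adhesive implants. Mybph had opposite signs, 0.54 (SE 0.52) at adhesive and -0.87 (SE 0.52) at non-adhesive implants. The difference between implants in these steps, which uses the libraries that chose the members, was 1.59 (SE 0.69) for Mb, 1.41 (SE 0.73) for Mybph, 0.60 (SE 0.32) for Art3, 0.24 (SE 0.50) for Fhl1 and -0.16 (SE 0.75) for Eno3 on the log2 scale.

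On day 3 no member differed between adhesive and non-adhesive implants in the edgeR test, which called 0% of 14223 genes. The lowest adjusted p of any gene was 0.59, with 1022 genes at an unadjusted p under 0.05. DESeq2 called 69 genes, 0.485% of those tested, none of them a member, and limma-voom called 0. Fhl1 came nearest, at a log2 fold change of 0.75 (SE 0.35, unadjusted p = 0.060, adjusted p = 0.70 in edgeR), and its DESeq2 adjusted p was 0.43. Mb stood at -0.49 (SE 0.51, edgeR adjusted p = 0.87), Mybph at 0.20 (SE 0.41, edgeR adjusted p = 0.93), Eno3 at 0.19 (SE 0.56, edgeR adjusted p = 0.95) and Art3 at 0.13 (SE 0.20, edgeR adjusted p = 0.91). The implants overlapped for all 5 members on day 3, and 4.07% of genes had implants without overlap. The summed level of 11 connective tissue matrix genes was 3846 to 11848 CPM with adhesive implants on day 3, against 6087 to 16331 CPM with non-adhesive implants, and all 11 had negative log2 fold changes (median -0.93), none of them called. Its part in the value of Fhl1 was not tested. The sign for Mb rested on 1 library, since it stood at 0.20 without replicate 2 of the non-adhesive implants, and that for Eno3 stood at -0.34 without replicate 1 of the adhesive implants.

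On day 14, the comparison that chose the members, adhesive implants had higher levels of 4 of the 5. The log2 difference of adhesive from non-adhesive implants was 1.60 (SE 0.55) for Mybph, 1.09 (SE 0.38) for Mb, 1.00 (SE 0.33) for Fhl1 and 0.74 (SE 0.23) for Art3, beside a median of -0.04 over all genes. Eno3, with 0.03 (SE 0.42), did not share this difference. Of the 26 other muscle genes listed further below, 22 had positive and 4 negative differences on day 14, with a median of 0.38. The upper quartile of all genes was 0.18. Positive differences were thus also seen outside these members, though the median of the lists lay below the 4 members' 0.74 to 1.60. The lists were chosen with earlier results of these data known, so this count is a description. Mb and Art3 had implants without overlap, as did 8.48% of the 13557 genes of that comparison, 4.62% with adhesive implants higher. Without replicate 4 of the non-adhesive implants the differences were 1.49 for Mb, 1.33 for Fhl1, 0.51 for Eno3, 0.88 for Art3 and 1.34 for Mybph. The summed level of the 11 matrix genes (such as Col1a1 and Col3a1, which encode fibrillar collagens) moved the other way on this day, at 2453, 13155, 5522 and 5145 CPM with adhesive implants, against 19366, 21518, 20716 and 3204 CPM with non-adhesive implants, in replicates 1 to 4. Its part in the members' differences was not tested.

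**Figure D2:**
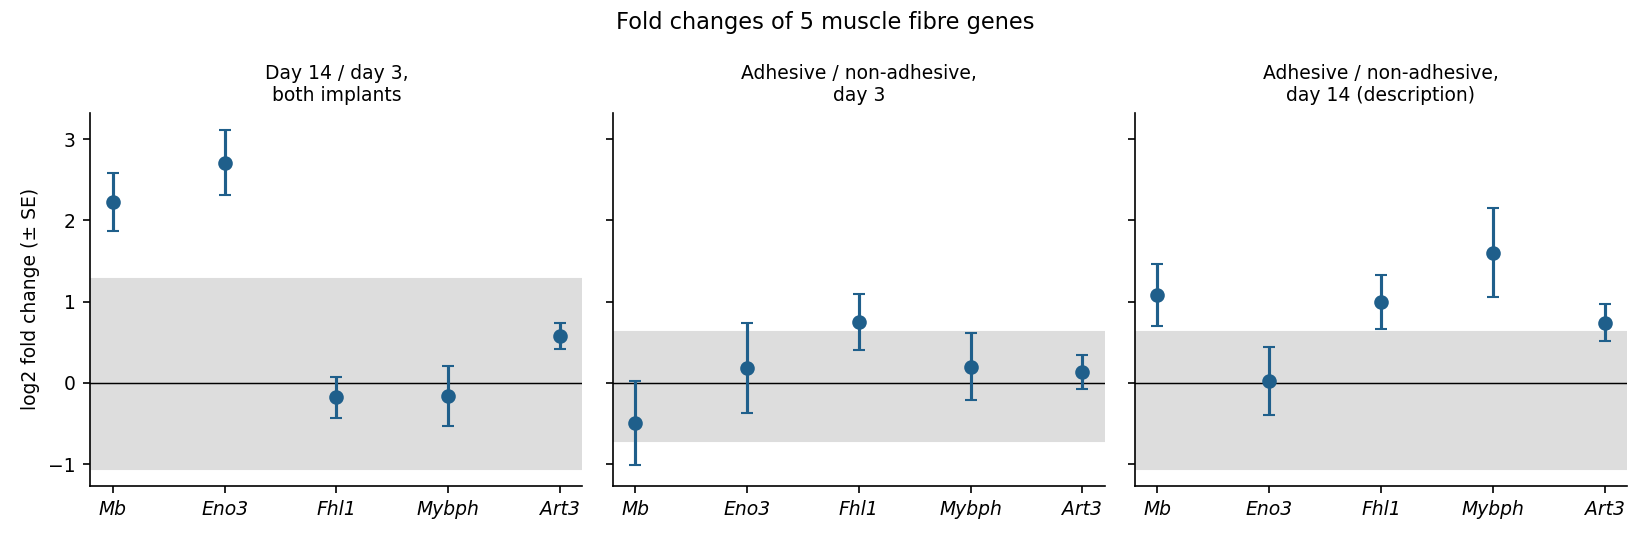
Log2 fold changes (± SE) of Mb, Eno3, Fhl1, Mybph and Art3 for day 14 over day 3 averaged over implants, for adhesive over non-adhesive implants on day 3, and for the same on day 14 as a description. The grey band spans the 5th to 95th percentile of all genes in each comparison, and the points of Mb and Eno3 lie above it between days, that of Fhl1 on day 3, and those of Mybph, Mb, Fhl1 and Art3 on day 14.

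Ratios between members of the same library do not depend on the scaling between libraries, and those of Eno3 and Mb to Fhl1 separated the days. They are a description, as the share of other gene pairs that separate the days was not computed. Eno3 alone already separated the days. The log2 ratio of Eno3 to Fhl1 in RPKM was 1.01 to 2.49 over the 8 libraries of day 14 and -2.08 to -0.24 over the 8 of day 3, without overlap. The log2 ratio of Mb to Fhl1 was 1.23 to 2.00 on day 14 and -1.71 to 0.68 on day 3, also without overlap. The ratio of Mb to Eno3 overlapped between days, at -0.98 to 0.77 on day 14 and -0.85 to 0.92 on day 3. On day 14 that ratio lay between 0.23 and 0.77 at adhesive and between -0.98 and -0.01 at non-adhesive implants, so that Mb was the more abundant of the pair per length in the adhesive libraries alone. The ratio of Art3 to Fhl1 averaged -3.17 ± 0.32 on day 14 and -3.91 ± 0.44 on day 3 on the log2 scale (SD, n = 8 each), with overlap.

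Across the 16 libraries, which share groups, days and depth, Mb and Eno3 followed each other most closely of the 10 pairs of members. Pearson's r of log2 CPM was 0.91 for Mb and Eno3, 0.76 for Mb and Art3 and 0.10 for Eno3 and Fhl1. Once the group means were removed, r was 0.82 for Mb and Eno3, 0.76 for Fhl1 and Art3, 0.73 for Eno3 and Fhl1, 0.62 for Mb and Fhl1, 0.49 for Mb and Art3 and 0.37 for Eno3 and Art3. By day, r of these deviations for Mb and Fhl1 was 0.90 on day 14 and 0.46 on day 3. Mybph stood outside this pattern, with r of -0.06 to 0.10 with the others after the group means were removed. Within day 14 alone its deviations ran against those of the other 4 members, at r of -0.58 to -0.39, and within day 3 with them, at 0.43 to 0.75. The day 14 values leaned on replicate 4 of the non-adhesive implants, as r without it was -0.34 to 0.04 for Mybph with the other members, 0.40 for Mb and Eno3 and 0.64 for Mb and Fhl1 over 7 libraries.

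**Figure D3:**
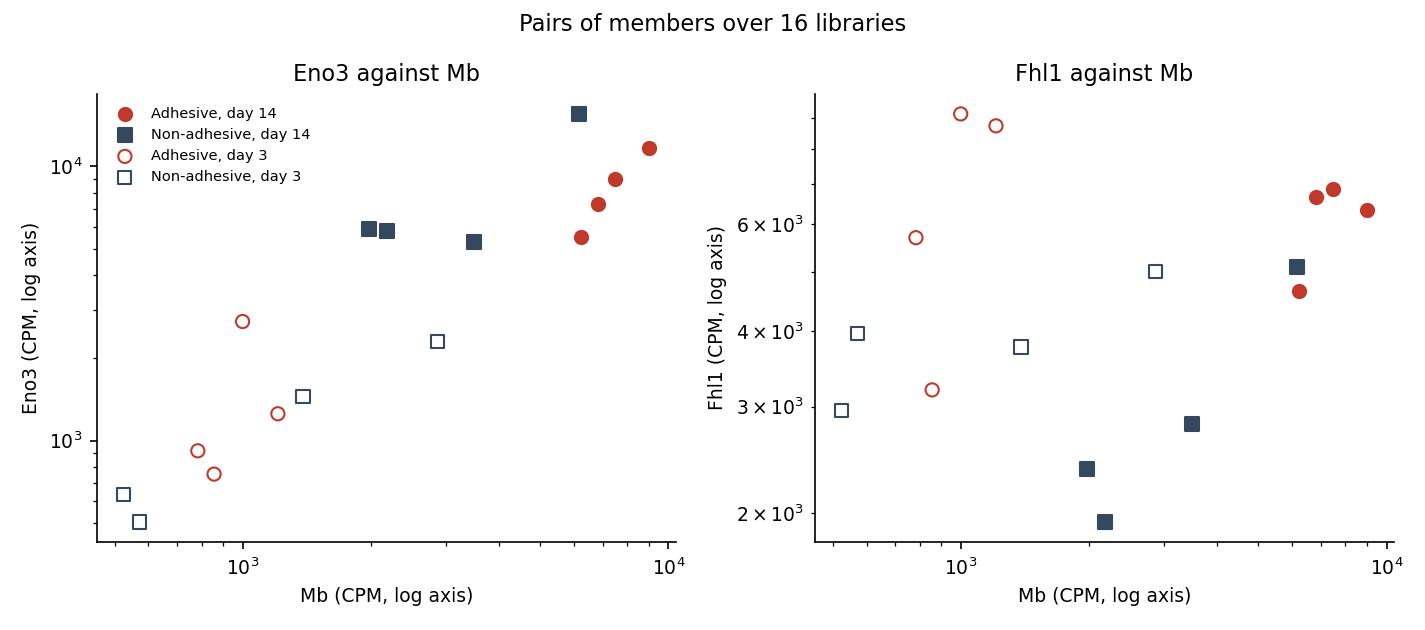
Eno3 (left) and Fhl1 (right) against Mb in CPM on log axes, with a point per library, filled for day 14 and open for day 3, round for adhesive and square for non-adhesive implants. Eno3 rises with Mb over all 16 libraries (Pearson's r of log2 CPM 0.91), whereas Fhl1 does not (0.22), as the days lie side by side.

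The levels of the members also varied with the genes of other cell types, whose part was not tested. After removal of group means, r with the summed matrix genes was -0.81 for Fhl1, -0.77 for Eno3, -0.67 for Art3, -0.64 for Mb and 0.03 for Mybph over 16 libraries. With the sum of 12 leukocyte genes (such as Ptprc, the pan-leukocyte surface phosphatase) it was -0.82 for Art3, -0.77 for Fhl1, -0.67 for Mb, -0.61 for Eno3 and 0.12 for Mybph. Over the members it was -0.64 to -0.28 with vessel, -0.64 to -0.29 with adipocyte and -0.58 to 0.08 with nerve genes. Replicate 4 of the non-adhesive implants on day 14 had the lowest matrix and leukocyte sums of its group, at 3204 and 216 CPM. These r were not computed without that library. Summed leukocyte genes ranged on day 14 from 394 to 806 CPM with adhesive and from 216 to 999.9 CPM with non-adhesive implants, and on day 3 from 528 to 1176 CPM with adhesive and from 407 to 884 CPM with non-adhesive implants. All 11 matrix and all 12 leukocyte genes were detected in every library, as were 8 vessel and 5 nerve genes, and of 2 adipocyte genes 1 was at 0 in some library.

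Genes whose pattern over 16 libraries was most like that of a member were taken from the 2007 genes with a symbol, as the 3 with the highest r of log2 CPM. For Eno3 they were Phkg1 (r = 0.99), the catalytic subunit of muscle phosphorylase kinase, Kcnj12 (0.99), an inward rectifier potassium channel, and Map2k6 (0.98), a kinase of the p38 pathway. For Mb they were Epb41l5 (0.95), Tspyl1 (0.94) and Ppp1r2 (0.94), an inhibitor of protein phosphatase 1. For Fhl1 they were Flii (0.94), an actin-binding gelsolin relative, Dusp27 (0.93), a relative of dual-specificity phosphatases, and Ltn1 (0.91), a ubiquitin ligase of ribosome quality control. Art3 had Mmgt1 (0.89), Gjb1 (0.87), which encodes a connexin, and Arvcf (0.87), a catenin. Mybph had Ets2 (0.78), a transcription factor, Slc43a2 (0.74), an amino acid transporter, and Slc51a (0.74). Of 13144 genes compared, 506 reached r of at least 0.9 with Eno3, 194 with Mb, 21 with Fhl1, 2 with Art3 and 0 with Mybph.

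Other muscle genes were read from 5 lists of 99 genes, of which 26 had a symbol here and passed the filter on low counts. Most listed sarcomere proteins were not analysed here for want of a symbol. The lists were chosen with earlier results of these data known. Phkg1 and Kcnj12 of these lists are also among the genes most like Eno3 above. The counts that follow are therefore a description and no independent support for the rises of Mb and Eno3. Between days, 9 of the 26 were called higher and 1 lower on day 14 by edgeR, beside 7.51% and 5.03% of all genes. Their median log2 fold change was 0.78, beside 0.02 for all genes. With library totals the count was 5 higher and 2 lower, beside 2.97% and 14.6% of all genes, and the list's median lay 0.81 above that of all genes, against 0.76 with TMM. Without replicate 4 of the non-adhesive implants on day 14 it was 6 higher and 1 lower, beside 6.38% and 5.17% of all genes. Without replicate 2 of the non-adhesive implants on day 3 it was 12 higher and 1 lower, beside 8.61% and 5.82% of all genes.

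The lists named energy supply and sarcomere held most of these calls. In energy supply, the list nearest to Eno3, 4 of 6 genes rose. Phka1, a regulatory subunit of phosphorylase kinase, had a log2 fold change of 1.86 (SE 0.24, edgeR adjusted p = 9.7e-05), Phkg1 had 2.58 (SE 0.40, edgeR adjusted p = 0.00039) and Pfkfb1, a regulator of glycolysis, had 2.12 (SE 0.52, edgeR adjusted p = 0.0062). Stbd1, a glycogen-binding protein, stood at 0.30 (SE 0.26, edgeR adjusted p = 0.39). The sarcomere list had symbols for 4 of its 37 genes, none of them an actin, myosin, troponin or titin gene. Of these 4 genes, 3 rose. They were Itgb1bp2 (melusin, a partner of integrin at the costamere) at 2.42 (SE 0.43, edgeR adjusted p = 0.00091), Fbxo40 (a muscle ubiquitin ligase component) at 1.13 (SE 0.25, edgeR adjusted p = 0.0035) and Mypn (myopalladin, a Z-disc protein) at 1.08 (SE 0.28, edgeR adjusted p = 0.0092). Asb12 stood at 0.11 (SE 0.27, edgeR adjusted p = 0.78).

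The lists of excitation, membrane and regulation held few calls. Of 7 genes of excitation and calcium handling, Kcnj12 was called, at 2.13 (SE 0.34, edgeR adjusted p = 0.00048). The calcium pump gene Atp2a2 stood at 0.99 (SE 0.24, edgeR adjusted p = 0.0059), just under the fold threshold, and the calcium channel subunits Cacnb1 and Cacng1 at -0.63 (SE 0.20, edgeR adjusted p = 0.023) and 0.28 (SE 0.29, edgeR adjusted p = 0.48). None of 4 genes of the fibre membrane was called. The sarcoglycans Sgca, Sgcb and Sgcd stood at 0.52, 0.17 and -0.27 and their partner Sspn at 0.95 (SE 0.28, edgeR adjusted p = 0.017). Among 5 regulators, Rxrg, a retinoid receptor, rose by 1.19 (SE 0.35, edgeR adjusted p = 0.016), while Myf5, a determination factor of the muscle lineage that marks muscle stem cells, fell by 1.61 (SE 0.29, edgeR adjusted p = 0.0011). Vgll2 and Dusp27 stood at 0.66 and -0.26, with edgeR adjusted p = 0.14 and 0.29. On day 3, edgeR called 0 of the 26 genes between implants, with 18 positive and 8 negative log2 fold changes.

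**Figure D4:**
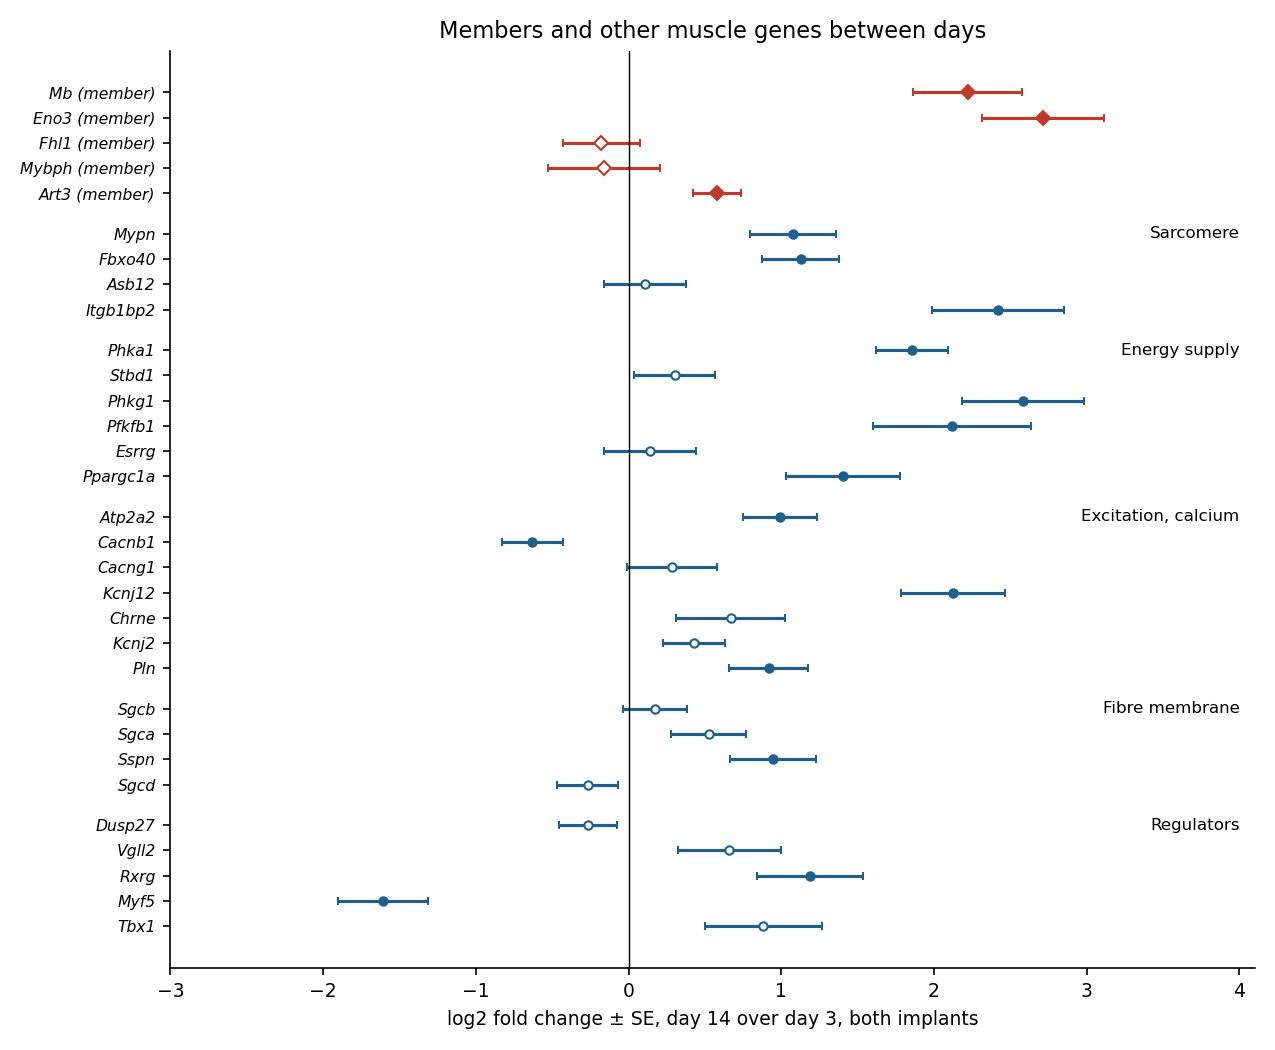
Log2 fold changes (± SE) of day 14 over day 3, averaged over implants, for the 5 members (diamonds) and 26 other muscle genes (circles) grouped by role. Filled symbols have an edgeR adjusted p of at most 0.05, and Mb at 2.22 and Eno3 at 2.71 lie among Itgb1bp2 (2.42), Phkg1 (2.58) and Kcnj12 (2.13), whereas Myf5 lies lowest at -1.61.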

How the data were processed

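Total RNA from the interface of implant and abdominal wall was enriched for poly(A) RNA and sequenced by the study. Per the labels and the methods, reads were split by sample (bcl2fastq 2.17), checked (FastQC), trimmed (Cutadapt), aligned (STAR) and assigned to genes (featureCounts) by the authors, who deposited raw counts of 32552 Ensembl genes, beside exonic length. The labels name GRCm38 and the methods a rat assembly. Use of strand in counting is not given in the sources used here. Symbols came from the part held of the authors' Supplementary Data (2007 genes, of which 1957 are in the RefSeq table), whose own comparison columns, fold changes and p-values, were not used.

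Groups followed the labels. After filterByExpr and TMM scaling, counts were fitted with edgeR 4.0.16 (R 4.3.3), each day alone for implants and all 16 libraries for days, with Benjamini-Hochberg adjustment over all genes and SEs from the fold change and its F statistic. DESeq2 1.42.0 and limma 3.58.1 (voom), other scalings, no filter, leaving out libraries and a replicate block were alternatives. Log2 CPM used a prior count of 2. The scripts were tested on simulated data. No pair of libraries within a group agreed within sampling noise. Named genes were the members, the 3 most like genes of each with a mean of at least 1 CPM, and up to 4 genes with the highest mean per muscle list. Members and lists were chosen with earlier results of these data known.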

Additional observations from a re-analysis of the deposited data

Results flagged for a closer look

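Eno3 in the non-adhesive implants on day 14 was flagged because 1 of 4 libraries lay far from the rest. Replicate 4 had 15506 CPM against 5313 to 5902 CPM in the others, and its gap to the nearest was 0.942 of the whole range. Mybph in the adhesive implants on day 3 was flagged in the same way, with replicate 3 at 316 CPM and a gap of 0.923 of the range. Members were examined in 20 groups of 4 libraries, and chance flags about 1 in 20 groups.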

How the results depend on the processing

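Mb and Eno3 kept their call between days under every alternative, with log2 fold changes of 1.96 to 2.57 for Mb and 2.41 to 2.96 for Eno3 when each library was left out in turn. Art3 was called between days where the adjusted p alone decided, at 0.58. That rule called 5246 genes, against 1831 with the fold threshold, 1927 by DESeq2 and 1578 to 2125 when each library was left out. On day 3, DESeq2 called 69 genes between implants, against 0 in edgeR and 0 when each library was left out. Without single libraries, the day 14 difference of implants, a description, ranged from 0.90 to 1.49 for Mb, -0.16 to 0.51 for Eno3 and 0.84 to 1.33 for Fhl1, the upper ends being those without non-adhesive replicate 4. On day 3 the sign of Mb (-0.76 to 0.20), Eno3 (-0.34 to 0.69) and Mybph (-0.02 to 0.77) depended on the library left out. The count of muscle list genes called higher between days, checked under alternatives chosen after seeing the data, was 5 with library totals, against 9, as the share of all genes called higher was 2.97% against 7.51%. Replicate numbers were not taken to pair the libraries, as no source ties them and same-numbered deviations correlated at -0.31 to 0.30 on day 3 and at -0.34 for replicate 1 of day 14. Replicates 2, 3 and 4 of day 14 correlated at 0.48, 0.25 and 0.17, each best with its own number, a hint from the data and not from the design. A fit with the replicate block called 1736 genes between days and 0 on day 3, and changed no member's call. The causes of these shifts were not tested.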
